A study of Mus musculus with 7 samples.

Results

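T-box transcription factors were followed in sorted cells of the fetal mouse bowel: Tbx1, Tbx2, Tbx3, Tbx4, Tbx5, Tbx6, Tbx15, Tbx18, Tbx20 and Tbx21. These 10 genes were taken by symbol, and each was measured by 1 probe set with a single gene symbol in the platform annotation, among 19938 genes in all. The cells came from whole bowel of embryonic day 17.5 mice carrying Wnt1-Cre, a recombinase driven by a promoter of the early neural crest, and R26R-EYFP, a reporter that makes yellow fluorescent protein once Cre has acted. Fluorescence-activated sorting gave 4 YFP-positive samples, which the labels call enteric neural crest-derived cells (ENCDC), and 3 YFP-negative samples, the non-ENCDC of the same genotype and age. The comparison addresses which genes ENCDC express more than their neighbours when the enteric nervous system is maturing. No allele or treatment other than these is named in the labels, which do not say whether animals were pooled or whether samples came from separate litters, so the p-values cover the spread among these samples only, which may be technical.

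T-box factors bind DNA through a shared domain, the T-box, which recognises elements around the core GGTGTGA. Members are known for marking positions and cell fates in the embryo: Tbx2 and Tbx3 act mostly as repressors, Tbx4 and Tbx5 in limb, lung and heart, Tbx1 in the pharynx, Tbx6 in the paraxial mesoderm, Tbx18 and Tbx15 in mesenchyme, Tbx20 in the heart and in hindbrain motor neurons, and Tbx21 (T-bet) in T helper 1 cells, natural killer cells and innate lymphoid cells. Tbx2 and Tbx3 are paralogs, as are Tbx4 and Tbx5, and in the mouse genome Tbx2 lies beside Tbx4 and Tbx3 beside Tbx5.

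Levels are log2 values from RMA, a method that subtracts background, equalises the arrays' distributions and combines the probes of each set. No call of presence comes with them, dim levels can be mostly background, and the number of arrays limits the precision. Median levels of the 7 arrays lay between 5.87 and 5.92. Neuronal and glial marker lists went with the labelled identity of the sort. All 9 measured pan-neuronal and all 6 measured enteric glial markers were higher in YFP-positive cells (limma, adjusted p under 0.05). All 7 myeloid markers, all 7 fibroblast markers and 10 of 11 markers of natural killer (NK), innate lymphoid (ILC) and T cells were lower. In the lists that follow a smaller share passed, or markers went both ways. Lower were 3 of 7 smooth muscle, 6 of 7 pericyte and 1 of 6 mesothelial markers, with 0 higher. All 7 smooth muscle markers lay lower without overlap of the groups, beside 13.5% of all genes. Of 7 blood endothelial markers 2 were lower and 1, Kdr, higher. Of 4 markers of interstitial cells of Cajal 2 were lower and 1, Etv1, higher. Of 5 lymphatic endothelial markers 0 were lower and 1, Pdpn, higher. None of the 8 intestinal epithelial markers passed, and none had an unadjusted p under 0.05 except Krt18 (log2 fold change -0.54 ± 0.23 SE, limma adjusted p = 0.157). Their mean level was 6.65 to 7.74 on the YFP-positive and 7.36 to 7.46 on the YFP-negative arrays. In such bulk samples, fewer cells of a type and less RNA per cell cannot be told apart.

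Of the 10 T-box genes 3 were higher in YFP-positive cells and 0 were lower. Tbx3, Tbx2 and Tbx20 rose, by very unequal amounts, and over all genes tested 8.39% were called higher and 9.11% lower. Tbx21 lay lower in YFP-positive cells without passing, at an unadjusted p of 0.0142 in the limma fit. The other 6 did not pass. The median log2 fold change of the 10 was 0.01, as it was over all genes. In 4 of the 10 (Tbx2, Tbx3, Tbx20 and Tbx21) all arrays of one group lay above those of the other, beside 26.9% of all genes.

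**Figure D1:**
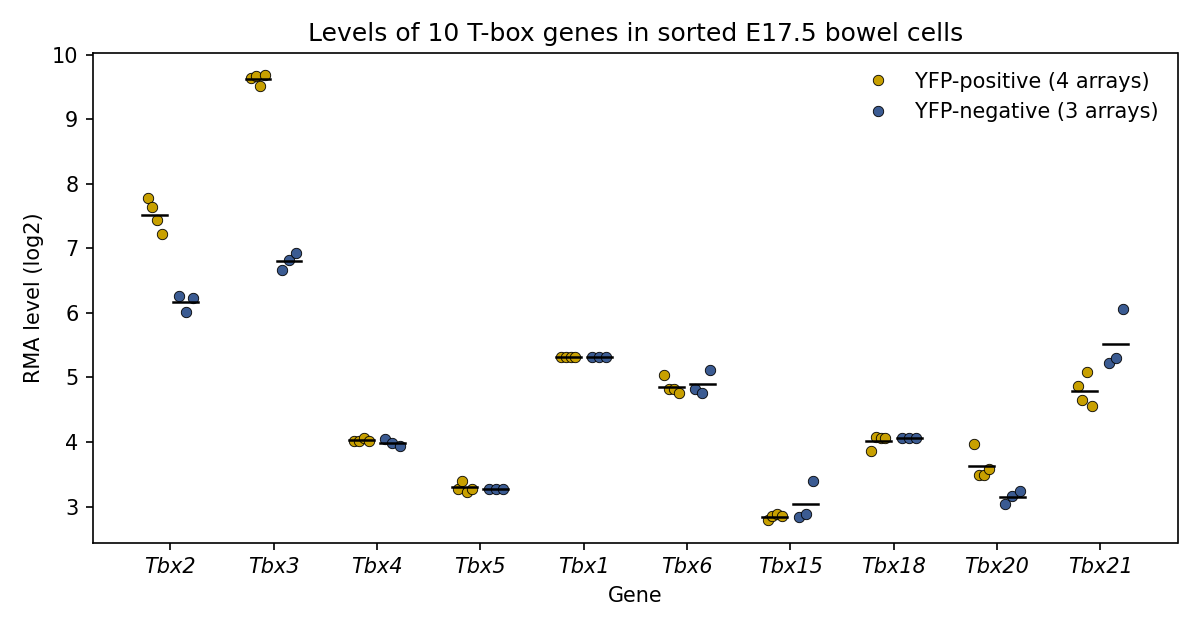
RMA level (log2, y axis) of each of the 10 T-box genes (x axis) on the 4 YFP-positive arrays (yellow) and the 3 YFP-negative arrays (blue), with 1 point an array and a bar at each group mean. Tbx3 and Tbx2 stand well apart between the groups, Tbx20 and Tbx21 by less, and Tbx1 has the same value, 5.32, on every array.

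Tbx3 had log2 levels of 9.63, 9.67, 9.52 and 9.68 on YFP-positive arrays 1 to 4 and of 6.66, 6.81 and 6.92 on YFP-negative arrays 1 to 3. All YFP-positive arrays were close together and far above all YFP-negative arrays. The group means were 9.63 ± 0.074 (SD, n = 4) and 6.80 ± 0.13 (SD, n = 3), a difference of 2.83 ± 0.079 (SE; 95% interval 2.64 to 3.01), or 7.09-fold (limma adjusted p = 1.48e-05). Of the genes called higher, 81 had a larger difference. The call was kept under all 17 alternatives, with log2 fold changes from 2.76 to 2.90.

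Tbx2, its paralog, had log2 levels of 7.78, 7.64, 7.44 and 7.23 on YFP-positive arrays 1 to 4 and of 6.26, 6.02 and 6.23 on YFP-negative arrays 1 to 3. The groups did not overlap, although the YFP-positive arrays were more spread out than for Tbx3. The means were 7.52 ± 0.24 (SD, n = 4) and 6.17 ± 0.13 (SD, n = 3), a difference of 1.36 ± 0.14 (SE; 95% interval 1.03 to 1.68), or 2.56-fold (limma adjusted p = 7.85e-04). A larger difference was found for 393 of the genes called higher. The call of Tbx2 was likewise kept under all 17 alternatives, with log2 fold changes from 1.27 to 1.54.

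The rise of Tbx3 exceeded that of Tbx2 by 1.47 on the log2 scale. The within-array difference of their log2 values had an SD of 0.25 (n = 4) in YFP-positive and of 0.20 (n = 3) in YFP-negative cells, and it was larger on each YFP-positive array than on any YFP-negative array. The exact two-sided permutation test gave p = 0.0571, or 0.0952 adjusted over the 5 pairs of T-box genes compared. The first is the smallest p that this test can give with 4 against 3 arrays, so the test cannot reach 0.05 here.

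Within the YFP-positive group, Tbx2 and Tbx3 were set beside the neuronal and glial markers. The mean of the 9 pan-neuronal markers was 9.52, 9.52, 9.20 and 8.96 on YFP-positive arrays 1 to 4, and that of the 6 glial markers 8.69, 8.66, 8.28 and 8.30. Tbx2 was highest on arrays 1 and 2 and lowest on array 4, like the neuronal mean, whereas Tbx3 was nearly level, from 9.52 to 9.68 (SD 0.074). An order of 4 arrays can arise by chance, and it was not tested. Smooth muscle markers had means of 8.02, 8.73, 9.33 and 9.75 on the same arrays, and fibroblast markers 7.49, 7.76, 8.35 and 8.62, both highest on arrays 3 and 4. The part of these other cells in the level of Tbx2 was not tested. Without YFP-positive arrays 3 and 4 the log2 fold change was 1.54 for Tbx2 and 2.85 for Tbx3.

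**Figure D2:**
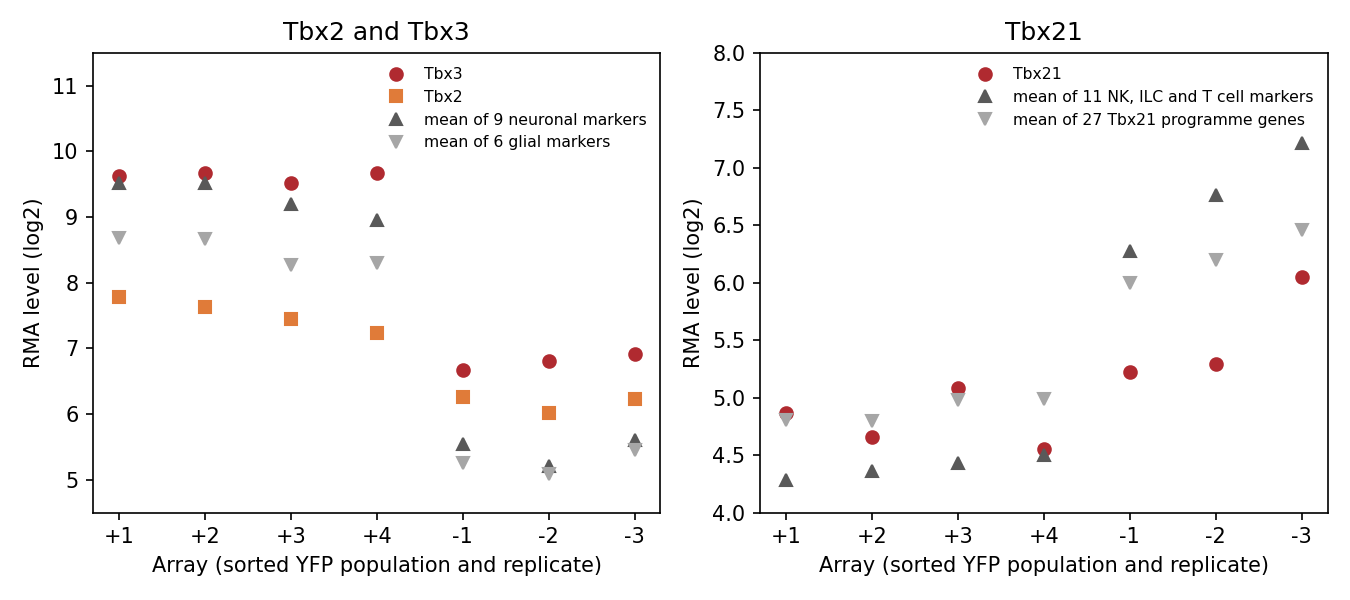
RMA level (log2, y axis) on each array (x axis: +1 to +4 are YFP-positive, -1 to -3 YFP-negative). Left, Tbx3 and Tbx2 beside the means of 9 neuronal and 6 glial markers; right, Tbx21 beside the means of 11 NK, ILC and T cell markers and of 27 genes of the Tbx21 programme. Tbx3 spans 9.52 to 9.68 on the YFP-positive arrays, Tbx2 7.23 to 7.78, and Tbx21 is highest, at 6.05, on YFP-negative array 3, where the NK, ILC and T cell mean is also highest.

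Genes nearest in pattern over the 7 arrays were searched for with predicted and clone names left out. Nearness was the root mean square difference of values centred on each gene's own mean. Nearest to Tbx3 were Clvs1, Cadm1, Gpr17, Hoxd3 and Celf3 (0.12 to 0.16 on the log2 scale). Cadm1 encodes a synaptic adhesion molecule, Celf3 a neuronal RNA-binding protein, Gpr17 a receptor of oligodendrocyte precursors and Hoxd3 a homeobox factor of axial position. Their log2 fold changes ran from 2.68 for Hoxd3 to 3.10 for Celf3. The measure picks genes with a like difference between the groups, so similar fold changes here and for Tbx2 are no separate result. Nearest to Tbx2 were Bub3, Cadm4, Sox5, Rab33a and Astn2, at 0.050 to 0.090. Bub3, a component of the mitotic checkpoint, had levels of 9.64, 9.48, 9.20 and 9.13 on YFP-positive and of 8.14, 7.93 and 8.13 on YFP-negative arrays. Sox5, a transcription factor of neural crest and neurons, had a log2 fold change of 1.33 ± 0.13 (SE).

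The genomic neighbours of Tbx2 and Tbx3 did not pass. Tbx5, next to Tbx3, had log2 levels of 3.28, 3.39, 3.23 and 3.28 on YFP-positive arrays and 3.28 on each YFP-negative array (difference 0.019 ± 0.058 SE, limma adjusted p = 0.871). Tbx4, next to Tbx2, had 4.01, 4.01, 4.06 and 4.01 on YFP-positive and 4.04, 3.99 and 3.94 on YFP-negative arrays (difference 0.034 ± 0.053 SE, limma adjusted p = 0.722). Both genes were dim, and their groups overlapped. The 95% intervals of their differences reached no further than 0.16 from 0 on this log2 scale, which understates changes of genes near background. The protein-coding genes on the other sides were Med13l beside Tbx3, a subunit gene of the mediator complex (-0.36 ± 0.19 SE, limma adjusted p = 0.258), and Bcas3 beside Tbx2 (0.25 ± 0.16 SE, limma adjusted p = 0.371).

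Tbx20, known from the heart and from cranial motor neurons, had log2 levels of 3.97, 3.49, 3.49 and 3.57 on YFP-positive arrays 1 to 4 and of 3.04, 3.17 and 3.24 on YFP-negative arrays 1 to 3. The groups did not overlap, and YFP-positive array 1 lay above the other arrays of its group. The difference was 0.48 ± 0.13 (SE; 95% interval 0.17 to 0.79), or 1.4-fold, and just passed (limma adjusted p = 0.0451). These levels are low, and the gene falls below the cut of 5.06 that would leave out the dimmest genes. The call was lost without YFP-positive array 2, 3 or 4 or any one YFP-negative array (adjusted p from 0.0641 to 0.143) and kept without YFP-positive array 1 (0.023).

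Markers of heart muscle, another tissue that expresses Tbx20, were at a mean of 5.29 to 5.72 on YFP-positive and 5.86 to 6.11 on YFP-negative arrays. Of these 5 markers 0 were higher in YFP-positive cells and Myl7, an atrial myosin light chain gene, was lower (-0.94 ± 0.23 SE, limma adjusted p = 0.0318). Nearest to Tbx20 in pattern were Smarcc2, Ank, Lrch3, Epc2 and Ap2b1, at 0.030 to 0.059. The neighbours of Tbx20, Cypt4 (0.0073 ± 0.073 SE) and Herpud2 (-0.19 ± 0.083 SE), did not pass.

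Tbx21 had log2 levels of 4.87, 4.66, 5.09 and 4.55 on YFP-positive arrays 1 to 4 and of 5.23, 5.29 and 6.05 on YFP-negative arrays 1 to 3. The groups did not overlap, and YFP-negative array 3 was highest. The difference was -0.73 ± 0.23 (SE; 95% interval -1.27 to -0.20) and did not pass over all genes (limma adjusted p = 0.07). It passed when the dimmest genes were left out of the table (adjusted p = 0.0471) and under none of the other 16 alternatives, with log2 fold changes from -0.88 to -0.47. The value of -0.47 was the one without YFP-negative array 3. The 11 NK, ILC and T cell markers had means of 6.27, 6.77 and 7.21 on YFP-negative arrays 1 to 3, in the same order as Tbx21, and of 4.28 to 4.5 on the YFP-positive arrays. Klrd1, an NK receptor subunit gene, had levels of 7.65, 8.03 and 8.69 on the YFP-negative arrays, against 3.81 to 4.62 on the YFP-positive ones. Alas2, the only erythroid marker measured, followed the same order, at 6.90 and 10.33 on YFP-negative arrays 1 and 2 and higher still on array 3, against 5.76 to 6.11 on YFP-positive arrays. The part of these cells in the level of Tbx21 was not tested.

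Genes listed for the Tbx21 programme, which covers interferon-gamma production, cytotoxicity and chemokine genes of type 1 lymphocytes, were mostly lower in YFP-positive cells. Of 27 measured, 19 were lower and 0 higher (limma, adjusted p under 0.05), beside 9.11% and 8.39% of all genes. At an unadjusted limma p under 0.05 there were 21 lower and 1 higher, the 1 being Zeb2. Over all 19938 genes the unadjusted counts were 3054 lower and 2962 higher. The median log2 fold change was -1.16, against 0.01 over all genes. The largest differences were those of the chemokine genes Ccl3 (-3.94 ± 0.34 SE) and Ccl5 (-3.26 ± 0.26 SE), of Nkg7, a granule protein gene of cytotoxic cells (-3.23 ± 0.36 SE), and of Il2rb, a subunit of the interleukin 2 and 15 receptors (-3.04 ± 0.26 SE). Ccl3 had levels of 5.35, 5.74, 5.29 and 6.74 on YFP-positive and of 9.67, 9.79 and 9.71 on YFP-negative arrays. The signature cytokine gene Ifng (-0.28 ± 0.19 SE, limma adjusted p = 0.379) and the perforin gene Prf1 (-0.15 ± 0.079 SE, limma adjusted p = 0.278), named after their values were seen, did not pass. Ifng had the same value on 4 of the 7 arrays, so its difference says little about RNA levels. Of the 27, 5 also stand in the list of NK, ILC and T cell markers, so these lists are not independent. Myeloid markers, whose cells also make Ccl3, had means of 9.51 to 9.74 on YFP-negative and 5.48 to 6.62 on YFP-positive arrays, and their part in this list was not tested.

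The 2 promoters of this programme that hold the T-box element are shown, since Tbx21 binds such elements. RefSeq promoter windows of GRCm38.p6, from 250 bases before to 50 after the start, were searched for GGTGTGA on both strands. Windows were at hand for 21 of the 27 programme genes, and 2 held it, beside 686 of 15614 tested genes with a window (4.39%) and 3.98% of all 32851 windows. In the stretches below, read 5′ to 3′ on the gene's strand, capitals mark the match. Each stretch was printed with up to 25 bases on either side of the match, no further than the searched window and the last base before the start.
Nkg7: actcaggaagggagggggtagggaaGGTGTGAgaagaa
Xcl1: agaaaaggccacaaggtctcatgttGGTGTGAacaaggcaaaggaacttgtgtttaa
The Nkg7 stretch is chr7:43437100-43437137 on the plus strand and its match begins 13 bases before the start. The Xcl1 stretch is chr1:164935679-164935735 on the minus strand, with the match beginning 188 bases before the start. Xcl1, a chemokine gene of NK and T cells, had levels of 5.46, 4.98, 5.56 and 4.82 on YFP-positive and of 5.62, 6.29 and 6.15 on YFP-negative arrays, and did not pass (-0.82 ± 0.24 SE, limma adjusted p = 0.0577). A match is a description of letters, not a measured binding site.

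Tbx1, Tbx5 and Tbx18 had values that hardly differed between arrays. Tbx1, a factor of the pharyngeal arches, was listed at 5.32 on all 7 arrays, the same number to every deposited digit, so its difference is 0 and its SE of 0.046 comes from the moderated fit alone. Tbx18, a factor of mesothelium, pericytes and ureteric mesenchyme, was 3.87, 4.07, 4.07 and 4.07 on YFP-positive arrays and 4.07 on each YFP-negative array (-0.050 ± 0.068 SE, limma adjusted p = 0.686). For comparison, 50 of 19938 genes had 1 value on all 7 arrays, and 16.4% had the same value on at least 4 arrays. Among the T-box genes Tbx1, Tbx5 and Tbx18, or 3 of 10, had the same value on at least 4 arrays. For such genes a small difference says little about RNA levels.

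Pericytes and mesothelium are among the cells known for Tbx18. The 7 pericyte markers had means of 6.99 to 7.38 on YFP-negative and 5.71 to 6.33 on YFP-positive arrays, and 6 were lower in YFP-positive cells, among them Kcnj8 (-2.05 ± 0.29 SE) and Abcc9 (-1.75 ± 0.30 SE), the channel subunit genes of pericytes. Of 6 mesothelial markers 1, Wt1, was lower (-0.75 ± 0.20 SE, limma adjusted p = 0.0394). Their part in the level of Tbx18 was not tested.

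Tbx6, a factor of the presomitic mesoderm, was 5.04, 4.82, 4.82 and 4.76 on YFP-positive and 4.82, 4.75 and 5.11 on YFP-negative arrays, so the groups overlapped (-0.037 ± 0.11 SE, limma adjusted p = 0.867). Tbx15, a factor of skin and skeletal mesenchyme, had levels of 2.79, 2.85, 2.89 and 2.85 in YFP-positive and of 2.83, 2.89 and 3.40 in YFP-negative samples, with overlapping groups (-0.20 ± 0.14 SE, limma adjusted p = 0.398). YFP-negative array 3 was the highest array for Tbx6, Tbx15 and Tbx21 alike. For the 7 members that did not pass, the 95% intervals reached between 0.109 and 0.535 to either side of the log2 fold change.

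**Figure D3:**
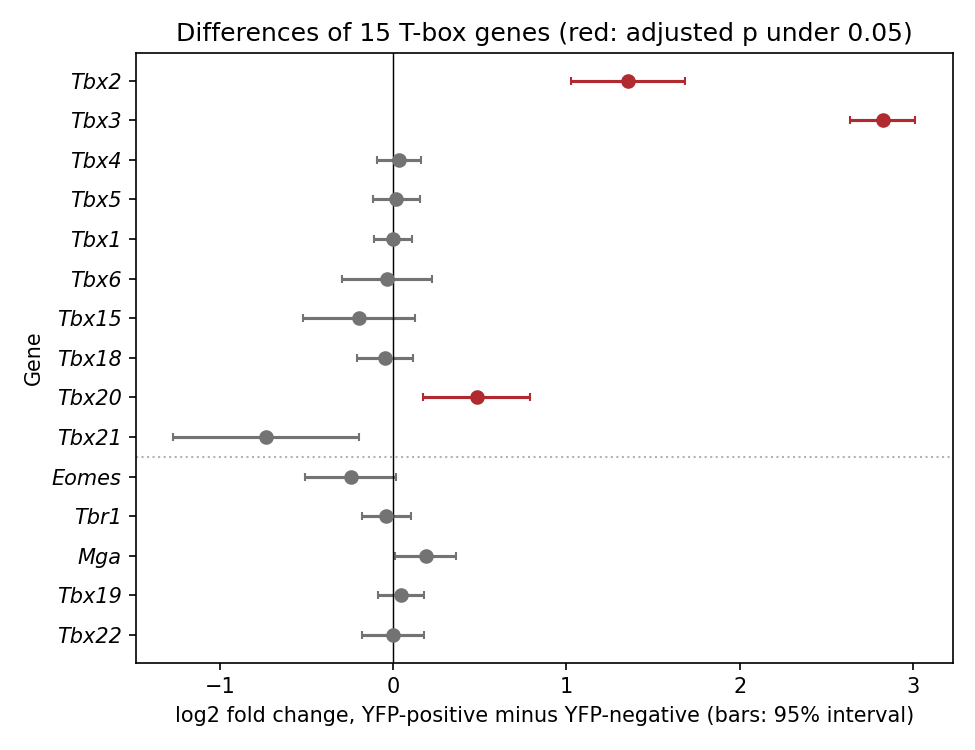
Log2 fold change (x axis, YFP-positive minus YFP-negative) with 95% interval for the 10 T-box genes (above the dotted line) and 5 other T-box family genes (below it). Tbx3 lies at 2.83, Tbx2 at 1.36 and Tbx20 at 0.48 (red, adjusted p under 0.05), and the intervals of Tbx4, Tbx5, Tbx1, Tbx6, Tbx15 and Tbx18 include 0.

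The rest of the T-box family, as far as measured, did not pass. Of 5 genes 0 were called in either direction by limma, beside 17.5% of all genes, and 1, Mga, had an unadjusted p under 0.05. Over all 19938 genes, 2962 were higher and 3054 lower at that unadjusted p. Mga, which pairs a T-box with a Max-binding domain, had log2 levels of 8.01, 7.91, 7.91 and 8.05 on YFP-positive and of 7.70, 7.91 and 7.73 on YFP-negative arrays (0.19 ± 0.075 SE, limma adjusted p = 0.141). Eomes, a factor of NK cells and of cortical progenitors, was 3.69, 3.56, 3.87 and 3.87 on YFP-positive and 3.87, 3.94 and 4.17 on YFP-negative arrays (-0.25 ± 0.11 SE, limma adjusted p = 0.191). Tbr1, a factor of cortical neurons, had a log2 fold change of -0.039 ± 0.060 (SE), Tbx19, a factor of pituitary corticotrophs, of 0.043 ± 0.056 and Tbx22, a factor of the palate, of -0.0018 ± 0.076.

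Genes listed as partners and cofactors of T-box proteins went both ways. Of 34 measured, 9 rose and 3 fell in YFP-positive cells, beside 8.39% and 9.11% of all genes, with a median log2 fold change of -0.037 against 0.012 over all genes. Eya1, a transcriptional coactivator that acts near Tbx1 in the pharynx, had levels of 7.60, 7.53, 6.99 and 7.26 on YFP-positive and of 4.67, 4.78 and 5.32 on YFP-negative arrays, a rise of 2.42 ± 0.21 (SE). Hand2, a basic helix-loop-helix factor of enteric neurons and of the heart, rose by 1.97 ± 0.14 (SE) and Chd7, a chromatin remodeller of the neural crest, by 1.86 ± 0.21 (SE). Runx3, which acts with Tbx21 in lymphocytes and also stands in the programme list, fell by 2.0 ± 0.26 (SE), with 4.72 to 5.55 on YFP-positive and 6.65 to 7.54 on YFP-negative arrays. The groups did not overlap for any of these 4 genes, which were named for their large differences. Over the list they did not overlap for 18 of 34 genes, beside 26.9% of all genes.

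Ripply1 and Ripply2, which recruit a corepressor to T-box proteins, held the element in their own promoter windows, as the 2 of 22 partner genes with a window that did, beside 4.39% of tested genes. The stretches are shown because both encode T-box corepressor adaptors.
Ripply1: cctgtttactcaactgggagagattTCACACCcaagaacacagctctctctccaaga
Ripply2: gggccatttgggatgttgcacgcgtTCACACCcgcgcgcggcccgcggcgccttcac
In both the capitals mark the element as read on its opposite strand. The Ripply1 stretch is chrX:139782477-139782533 on the minus strand and that of Ripply2 chr9:87015385-87015441 on the plus strand. Neither passed: Ripply2 differed by 0.47 ± 0.13 on the log2 scale (SE, limma adjusted p = 0.0525) and Ripply1 by -0.012 ± 0.13 (SE, limma adjusted p = 0.965).

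Genes reported as targets of T-box factors in other tissues went both ways. Of 40 measured, 6 rose and 7 fell in YFP-positive cells, beside 8.39% and 9.11% of all genes, and 27 did not pass. Hand2, called higher, and Pax3 also stand in the list of partners, so these lists are not independent. Their median log2 fold change was -0.062. The largest differences were those of Cdh2, the neural cadherin gene (3.47 ± 0.15 SE), Tgfb2, a growth factor gene (3.04 ± 0.17 SE), Sox2, a factor of neural progenitors and glia (2.56 ± 0.19 SE), and the signalling gene Bmp4 (-2.09 ± 0.35 SE). Cdh2 had levels of 9.93, 9.72, 9.48 and 9.50 on YFP-positive and of 6.45, 5.99 and 6.11 on YFP-negative arrays, and Bmp4 had 6.15, 6.53, 7.33 and 7.43 against 8.97, 9.32 and 8.56. In neither gene, both named for large differences, did the groups overlap, beside 16 of the 40 targets and 26.9% of all genes. Bmp4, like the fibroblast markers, was highest on arrays 3 and 4 within the YFP-positive group. The 7 lower targets were 4 without YFP-positive array 3 or without any one YFP-negative array.

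The values of 4 further genes of the target list are given singly, and these genes were chosen after their values were seen. The cell cycle inhibitor gene Cdkn2a was at 4.46 to 4.58 on YFP-positive and 4.58 to 4.60 on YFP-negative arrays (-0.039 ± 0.056 SE, limma adjusted p = 0.699). Cdkn2a had the same value on 5 of the 7 arrays, so its small difference says little about RNA levels. The epithelial cadherin gene Cdh1 was at 6.69, 7.5, 8.11 and 8.52 on YFP-positive arrays and 7.88 to 7.95 on YFP-negative arrays, with overlapping groups (-0.20 ± 0.40 SE). Ndrg1 rose (0.57 ± 0.13 SE, limma adjusted p = 0.022), and the connexin gene Gja5 fell (-0.59 ± 0.15 SE, limma adjusted p = 0.0351).

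Nppa, the atrial natriuretic peptide gene, is a textbook T-box target in the heart and was the only one of 30 reported targets with a promoter window that held the element.
Nppa: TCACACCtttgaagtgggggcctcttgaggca
The capitals again mark the opposite-strand reading, in chr4:148000472-148000503 on the plus strand, where the match begins 250 bases before the start. Nppa had levels of 4.90, 4.88, 4.90 and 4.94 on YFP-positive and of 4.90, 4.69 and 4.95 on YFP-negative arrays, and the groups overlapped (0.058 ± 0.073 SE, limma adjusted p = 0.655). Windows were at hand for 6 of the 10 T-box genes themselves, Tbx1, Tbx4, Tbx6, Tbx18, Tbx20 and Tbx21, and 0 of these held the element.

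**Figure D4:**
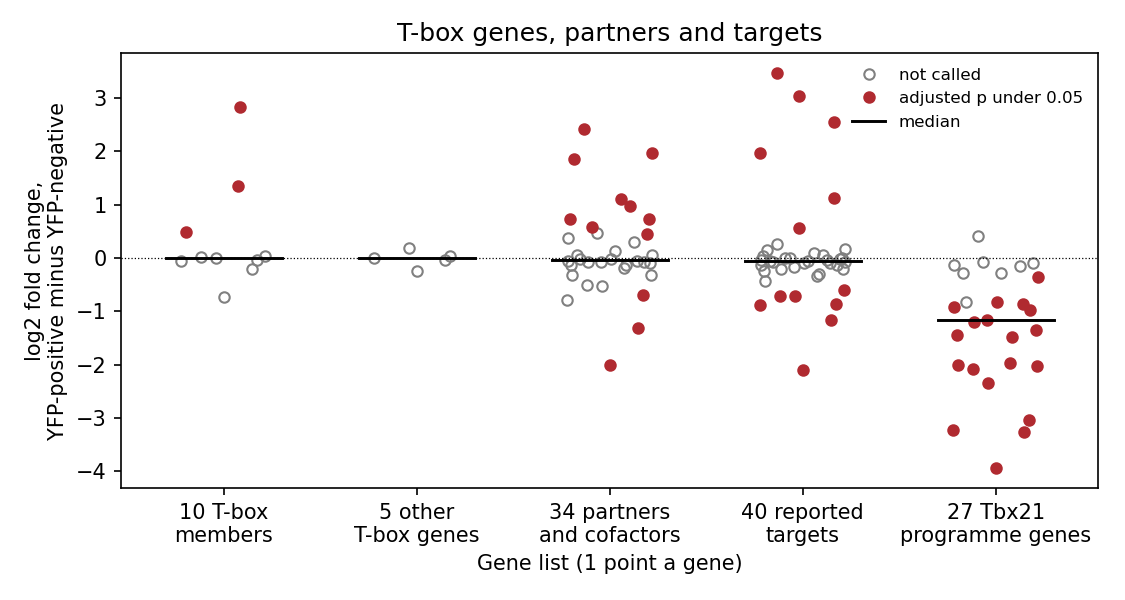
Log2 fold change (y axis, YFP-positive minus YFP-negative) of every measured gene of 5 lists (x axis), with 1 point a gene, red where the adjusted p was under 0.05, and a bar at the median. The 27 genes of the Tbx21 programme lie mostly below 0, with a median of -1.16, while the medians of the other lists lie between -0.062 and 0.0094.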

How the data were processed

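RNA of 7 sorted samples was measured on Affymetrix mouse gene arrays. The deposited values are log2 levels per probe set, which the authors computed by RMA in Expression Console (per the submitters' processing notes); no version or annotation build is stated in the sources used here. Per the labels' protocols, cDNA was amplified before hybridisation (NuGen Ovation PicoSL WTA).

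Of 35556 probe sets, 21789 had 1 gene symbol, 1621 several and 12146 none; the first were used, the brightest of each gene by its mean over the 7 arrays, giving 19938 genes. Of the columns, 0 were unmatched. The groups were tested by limma 3.58.1 (lmFit, eBayes) in R 4.3.3, group as the only term, with Benjamini-Hochberg adjustment over all genes and a threshold of 0.05; the fit was tested on simulated data. Pairs of genes were compared by exact permutation in scipy 1.17.1. Sequences are RefSeq's, of GRCm38.p6; no other coordinates are given, since the array's build is not stated.

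Members and lists were chosen with earlier results of these data known. Listed genes without a usable probe set are not analysed here. Named are all T-box genes, up to 4 called genes of each list by size (of lists with none called, up to 2). The neighbours of each called member and the 5 genes nearest to it in pattern are also named. Predicted and clone names were left out of the search for nearest patterns. Others are marked. Alternatives were a trended robust prior, median centring, repeated quantile normalization, the dimmest genes left out, the mean of probe sets, every probe set, array weights, a test against 1.5-fold (treat), a replicate block, each array left out, and both YFP-positive arrays 3 and 4 left out.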

Additional observations from a re-analysis of the deposited data

Results flagged for a closer look

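Single arrays that stood apart within the 4 YFP-positive arrays were searched for among the 42 genes named (T-box genes, list genes and nearest patterns) with Dixon's gap ratio, the gap of the extreme array divided by the group's range, against its 95% critical value for 4 samples; chance passes about 1 in 20 such groups. Tbx4 was 4.06 on array 3 and 4.01 on the others (ratio 1), Tbr1 was 4.26 on array 4 and 4.35 on the others (ratio 1), and Tbx19 was 4.27 on array 3 and 4.23 on the others (ratio 1). Tbx18 was 3.87 on array 1 and 4.07 on the others (ratio 0.986). In these 4 genes the remaining arrays shared the same value to 2 decimals, so a small departure gives a high ratio. Lrch3, near Tbx20 in pattern, was 9.08 on array 1 and 8.54 to 8.63 on the others (ratio 0.83).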

How the results depend on the processing

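Tbx3 and Tbx2 kept their direction and call under all 17 alternatives; Tbx20 kept its direction under the 16 that tested it and its call under 7, with adjusted p of 1 against 1.5-fold, 0.161 with the replicate block and 0.103 without YFP-positive arrays 3 and 4. Of the T-box members 0 had several probe sets. The mean of probe sets and every probe set thus repeated their values and could hardly change these calls. With the dimmest genes left out, 1 T-box gene, Tbx21, was called lower. The test against 1.5-fold called 469 higher and 558 lower genes in all, 4 and 1 partners, 1 lower target and 9 lower genes of the Tbx21 programme; 1 programme gene was called higher after repeated quantile normalization. With single arrays left out, the higher T-box genes numbered 2 to 3 and the lower 0, all genes higher 1202 to 1452 and lower 1166 to 1890 (1166 without YFP-negative array 2), lower targets 4 to 7, and programme genes 13 to 17 lower and 0 to 1 higher (1 without YFP-negative array 2). Same-numbered arrays' deviations from their group means correlated at 0.0084, -0.086 and 0.038. Of 3 YFP-negative arrays 0 correlated best with their own number. With 3 such pairs these values cannot show whether same-numbered samples came from the same bowels, which the labels do not state. The replicate block called 1245 genes higher and 1264 lower, 2 T-box genes higher and 12 programme genes lower. YFP-positive array 4 has no same-numbered partner, so the block's log2 fold changes equal those without that array (Tbx2 1.45, Tbx3 2.81). The block also fits more terms to the same 7 arrays, which leaves it less power. The cause of the changes in these counts was not tested. Without detection calls, dim genes limit what a difference near 0 shows.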

Other observations

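The 8-letter form of the T-box element, AGGTGTGA, was rare in promoter windows of genes higher in YFP-positive cells. On either strand it stood in the window of 1 of 1293 higher genes (0.0773%), 19 of 1404 lower genes (1.35%) and 184 of 12917 genes that were not called (1.42%). The 1 higher gene was Tcf20 (log2 fold change 0.39 ± 0.096 SE). The shorter GGTGTGA, which the longer form contains, stood at 3.87%, 4.2% and 4.47% of the same groups, and the forms with another first letter stood at 2.32%, 1.35% and 1.54% (GGGTGTGA), 0.541%, 0.499% and 0.573% (CGGTGTGA) and 0.928%, 0.997% and 0.983% (TGGTGTGA). The mean share of G and C in the windows was 62% in higher, 57.8% in lower and 56.3% in other genes. The motifs were chosen with the calls known, the difference was not tested, and the part of base composition in it was not tested.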
